A study of Saccharomyces cerevisiae with 78 samples.

Results

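The arrays of this yeast series carried probes for transfer RNA (tRNA) genes beside the intron-containing genes they were built for. The tRNA genes were found by their symbols. A symbol made of t, the letter of an amino acid, an anticodon in brackets and the letter Q stands for a tRNA gene of the mitochondrial genome, and a SUP symbol whose systematic name is that of a tRNA stands for a nuclear one. Of 982 genes on the arrays, 27 were found in this way, namely 24 mitochondrial genes and the 3 nuclear genes SUP11, SUP16 and SUP61. SUP45 was left out because it is a protein gene. RefSeq gene types added 37 nuclear tRNA genes that the arrays list under other names, so that 40 nuclear tRNA genes are described below, and 64 tRNA genes in all. The 24 mitochondrial genes are all the mitochondrial tRNA genes in RefSeq, and 0 other genes of the mitochondrial genome were on the arrays.

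Each mutant was a haploid Saccharomyces cerevisiae strain from which the intron of 1 ribosomal protein gene had been removed precisely, written Di after the gene. The 17 mutants were rpl16aDi, rpl23aDi, rpl24aDi, rpl29Di, rpl2aDi, rpl2bDi, rpl31aDi, rpl34aDi, rpl35aDi, rpl40bDi, rps14aDi, rps14bDi, rps21bDi, rps23aDi, rps8aDi, rps9aDi and rps9bDi. Mutant RNA was hybridised together with RNA of a wild type from the same parent, both grown in rich medium (YEPD) at 30 °C, on 2-colour arrays with the dyes swapped. The 78 arrays made 39 replicates of 2 arrays each, with 3 replicates for 9 strains, 2 for 4 strains and 1 for rpl24aDi, rpl29Di, rpl31aDi and rps23aDi.

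Values are log2 ratios of mutant to wild type, and a positive value means more signal in the mutant. Each tRNA gene had 1 feature of 6 spots on an array, so that a replicate rested on up to 12 spots. The spread shared by all strains had 22 residual degrees of freedom and a median moderated SD of 0.16. Sources do not say whether replicates were separate cultures, and the p-values may therefore measure technical spread only. An array left between 83 and 3552 of its 9216 spots without a value (median 1188). The 4 arrays of rps9aDi left 2588 to 3552. The feature of the gene whose intron was deleted lay below 0 in both dyes in 17 of 17 strains, between -3.55 and -0.61. MFA2, which encodes the pheromone of MATa cells, lay at -3.04 or below in 23 replicates and between -0.19 and 0.73 in the other 16. Its part in the tRNA values was not tested.

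A tRNA carries an amino acid to the ribosome and reads a codon through its anticodon. In the yeast nucleus RNA polymerase III makes tRNAs from genes scattered over the chromosomes, RNase P trims their front ends, and the introns that some of them hold are cut out by a protein endonuclease and joined by the ligase Trl1, without the spliceosome that removes introns from mRNA. Mitochondrial tRNAs are made by the mitochondrial RNA polymerase in long transcripts that hold several genes, hold no introns, and are cut free by a mitochondrial RNase P and a 3′ endonuclease. In the RefSeq gene order 16 of the 24 mitochondrial tRNA genes follow each other with no other gene between them, from tT(UGU)Q1 to tM(CAU)Q1. The sources used here do not give the primer used to label the RNA. Mature tRNA has no poly(A) tail, and whether the probes read mature tRNA or precursors was not tested. Copies of a nuclear tRNA gene can be near-identical, so the value of a nuclear feature may include signal from its copies.

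Few tRNA features differed between mutant and wild type. With limma and Benjamini-Hochberg adjustment over all features of a strain, 2 of 455 pairs of a feature found by symbol and a strain passed an adjusted p of 0.05, and both were lower in the mutant. Of all pairs on the arrays 0.984% passed. The mitochondrial class gave 1 of 404 pairs, tR(UCU)Q1 in rps9aDi. The nuclear class gave 1 of 51 pairs with the 3 genes found by symbol, SUP16 in rpl2bDi, and 9 of 679 pairs with all 40 nuclear genes, 3 higher and 6 lower in the mutant. At an unadjusted p under 0.05 there were 52 mitochondrial pairs (12.9%) and 97 nuclear pairs (14.3%), beside 9.37% of all pairs.

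Over the whole of the class, mitochondrial and nuclear tRNA features were near wild type in most mutants. The median of the 24 mitochondrial features lay between -0.27 and 0.39 in the 39 replicates, that of the 40 nuclear features between -0.33 and 0.25, and that of all features between -0.02 and 0.02. The mitochondrial median was above the nuclear one in 22 of 39 replicates, with a middle difference of 0.04 and single replicates from -0.45 to 0.53. Neither class was thus above the other throughout. With only the 3 nuclear genes found by symbol the mitochondrial median was also above in 22 of 39 replicates, by a middle 0.05, with a range of -0.64 to 0.65.

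By strain the mitochondrial median was above the nuclear one in 10 of 17 strains. In rps8aDi the mitochondrial median was 0.17 and the nuclear one -0.01, with 22 of 24 mitochondrial and 15 of 40 nuclear features above 0. Features of a strain share its replicates, so such counts are no test of the strain. Replicate 1 of rps8aDi, on slides A, gave 0.61 for tQ(UUG)Q, 0.50 for tT(UGU)Q1, 0.60 for tR(ACG)Q2 and 0.56 for tR(UCU)Q1. In replicates 2 and 3 these features lay between -0.14 and 0.07. In replicate 1 tF(GAA)Q and tE(UUC)Q were near 0, at 0.06 and -0.07. In rpl23aDi the values were 0.12 for mitochondrial and -0.08 for nuclear features, with 20 of 24 and 9 of 40 above 0. The opposite held in rps14bDi, where the mitochondrial median was -0.13 and the nuclear one 0.01. By strain the class difference ran from -0.15 in rps14bDi to 0.21 in rpl23aDi. In rpl2aDi the mitochondrial median was 0.00 and the nuclear one 0.14, with 13 of 24 and 35 of 40 features above 0, and in rpl35aDi both classes were low, at -0.15 and -0.11. Both classes also stood on the same side of 0 in rpl31aDi, rpl29Di and rps23aDi, which had 1 replicate each. In rpl31aDi the mitochondrial median was 0.22 and the nuclear one 0.25. In rpl29Di they were 0.22 and 0.17, and in rps23aDi -0.26 and -0.33. Accordingly rpl31aDi gave the highest strain value for 9 mitochondrial and 21 nuclear features, and rps23aDi the lowest for 10 mitochondrial and 18 nuclear features, each from a single replicate that has no repeat. None of the 24 mitochondrial or 40 nuclear features was called in these 3 strains by limma, at adjusted p under 0.05. Of all 1457 features only 2 were called in rpl31aDi, 3 in rpl29Di and 1 in rps23aDi. An unadjusted p under 0.05 was reached by 3 mitochondrial and 8 nuclear features in rpl31aDi, 4 and 0 in rpl29Di, and 6 and 13 in rps23aDi. Over all strains and features 9.37% of pairs reached it.

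The sample titles open with 1 of 4 numbers, which were read here as 4 slide batches, called A to D. The labels themselves name no batch. These batches held 9, 9, 18 and 2 replicates, while 1 replicate of rpl2aDi spanned B and C. The middle difference between the mitochondrial and the nuclear class was 0.08 on slides A, 0.04 on B, 0.02 on C and -0.38 on D. Slides D held only replicate 1 of rps14aDi and replicate 1 of rps14bDi, and the mitochondrial median lay below the nuclear one in both. With the 3 nuclear genes found by symbol the values were 0.13, 0.20, 0.05 and -0.50 in the same order. Slides A held 9 strains and slides D 2, with 1 replicate of each, so that no single strain could be tested within them, and a mean over the strains of slides A was not tested.

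Mitochondrial features were measured by fewer spots than nuclear ones. Over the 78 arrays a mitochondrial feature kept a value in 30.3% to 94.7% of its spots (median 74.2%), a nuclear one in 60.0% to 99.8% (median 94.1%), and any other feature in 29.5% to 100% (median 90.6%). On 70 of 78 arrays the mitochondrial share was below the nuclear share. The 24 genes differed among themselves. tC(GCA)Q (cysteine) had 30.3%, tA(UGC)Q (alanine) 36.3% and tI(GAU)Q (isoleucine) 38.5%, while tV(UAC)Q (valine) had 92.1% and tS(UGA)Q2 (serine) 94.7%. Values stood in all 39 replicates for 15 of 24 mitochondrial and 35 of 40 nuclear features, and tC(GCA)Q had one in 24 replicates only. The batches differed too, with a median share of 80.9% for mitochondrial and 96.2% for nuclear features on slides A, 97.9% and 99.6% on B, 52.8% and 86.7% on C, and 70.8% and 95.2% on D.

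Large mitochondrial values rested on few spots, and large nuclear ones did not. Beyond 1 on the log2 scale in either direction lay 24 of 883 mitochondrial replicate values (2.72%), 31 of 1551 nuclear ones (2.0%) and 484 of 53659 others (0.902%). Of the 24 mitochondrial values 22 came from under 4 of the 12 spots and 21 from 1 dye only. Of the 31 nuclear values 0 came from under 4 spots, and in all 31 both dyes gave the same sign. The 2 highest mitochondrial values were tN(GUU)Q (asparagine) at 3.26 in replicate 2 of rpl40bDi and tA(UGC)Q at 3.26 in replicate 2 of rps14bDi, each from 1 spot. They were chosen after their values were seen. The median size of a mitochondrial log2 ratio was 0.29 in the 125 values from 1 to 3 spots, 0.12 in the 432 from 4 to 11 spots and 0.14 in the 326 from all 12. For nuclear features these medians were 0.11, 0.11 and 0.15, over 32, 499 and 1020 values. Strain means spanned 0.36 to 3.0 for mitochondrial features (median span 0.95) and 0.31 to 2.28 for nuclear features (median 0.70). The mitochondrial features of largest span with a value in at least 30 replicates were tA(UGC)Q, with strain means of -1.31 to 1.69, and tM(CAU)Q2 (methionine), with -1.05 to 1.29. Their F tests between strains gave adjusted p-values of 0.76 and 0.495.

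**Figure D1:**
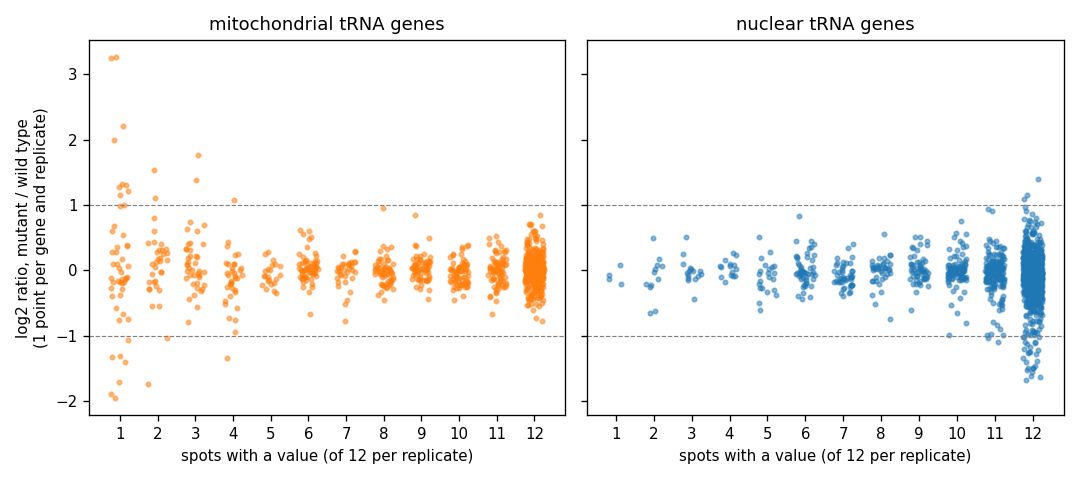
Replicate log2 ratios (mutant to wild type) of mitochondrial and nuclear tRNA features against the number of spots, of 12, that gave a value. Mitochondrial values beyond 1 in either direction sit mostly at under 4 spots (22 of 24), and 0 of the 31 such nuclear values do.

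By medians over arrays the 2 dyes lay apart for a larger share of mitochondrial than of nuclear features, but within replicates they differed about equally. The medians over arrays with the mutant in Cy5 and in Cy3 lay more than 0.3 apart for 10 of 24 mitochondrial features (41.7%), 7 of 40 nuclear features (17.5%) and 439 of 1393 others (31.5%). The mitochondrial gaps, Cy5 minus Cy3, ran from -0.41 for tR(UCU)Q1 to 0.80 for tH(GUG)Q (histidine). Within a replicate the median difference between the dyes was 0.28 for mitochondrial, 0.26 for nuclear and 0.26 for other features. Both dyes gave the same sign in 384 of 794 mitochondrial replicate values (48.4%), 820 of 1521 nuclear values (53.9%) and 42.2% of the others. Among single features this share ran from 5 of 34 for tH(GUG)Q to 31 of 38 for SUP16, and it was 29 of 39 for tS(UGA)Q2.

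In the mitochondrial class, tR(UCU)Q1, a tRNA for arginine, was the 1 feature called over all slides. It fell to -1.71 in replicate 1 and -1.34 in replicate 2 of rps9aDi, a mean of -1.52 ± 0.27 (SD, n = 2), or 0.348 of the wild type signal (limma, adjusted p = 2.16e-09). The other 37 replicates, of 16 strains, lay between -0.38 and 0.56, and both rps9aDi values were below all of them. Both dyes gave a value in 36 replicates but in neither of rps9aDi, so this range is of values mostly averaged over the dyes. Of 22 mitochondrial features tested in rps9aDi this was the 1 that passed, and of all features in that strain 2.01% passed. The value rests on 5 spots, 1 in replicate 1 and 4 in replicate 2. All 5 were on the arrays with the mutant in Cy5, the dye orientation in which tR(UCU)Q1 had a median of -0.22 over all arrays, against 0.19 in Cy3. Both arrays with the mutant in Cy3 gave no value, so the fold has no check by dye swap. With the Cy5 arrays of all strains alone the adjusted p was 1.08e-06, and the limma F test between strains gave 4.7 (adjusted p = 0.0133). With the spread taken from the 2 rps9aDi replicates alone the adjusted p for rps9aDi was 0.0791. MFA2 lay at -0.05 and 0.11 in these replicates. With slide batch as a term 3 mitochondrial pairs were called, tR(UCU)Q1 in rps9aDi (-1.46, adjusted p = 6.18e-05), tS(GCU)Q1 (serine) in rpl35aDi (-0.35, adjusted p = 0.0193) and tM(CAU)Q1 in rps9bDi (-0.77, adjusted p = 0.0316), the last 2 named after their values were seen.

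The neighbours of tR(UCU)Q1 in the gene order did not pass in rps9aDi. tK(UUU)Q (lysine), just before it, had a mean of -0.49 ± 0.43 (SD, n = 2, limma adjusted p = 0.528), and tG(UCC)Q (glycine), just after it, had -0.15 ± 0.19 (SD, n = 2, limma adjusted p = 0.807). tQ(UUG)Q (glutamine), one place further up, was at -0.18, and tD(GUC)Q (aspartate), one place further down, at -0.17 in the 1 replicate that gave a value. Low values without a call in the same strain were tC(GCA)Q at -1.23 ± 0.23 (SD, n = 2, limma adjusted p = 0.135), tE(UUC)Q (glutamate) at -0.96 ± 1.42 (SD, n = 2, limma adjusted p = 0.135) and tA(UGC)Q at -1.31 in 1 replicate. The tA(UGC)Q value came from 1 spot. For tE(UUC)Q replicate 2 gave -1.96, also from 1 spot, and replicate 1 gave 0.05. The other mitochondrial arginine tRNA, tR(ACG)Q2, gave no value in rps9aDi, nor did tM(CAU)Q1. On the rps9aDi arrays 25.7% to 45.8% of mitochondrial tRNA spots and 68.8% to 78.3% of nuclear tRNA spots had a value. The medians over all slides B, where these arrays are counted, were 97.9% and 99.6%. Neither the slide batch term nor a fit on slides B adjusts for this difference within the batch. The mitochondrial median in rps9aDi was -0.18 and the nuclear one -0.06, and 0 of 39 nuclear features tested were called (limma, 1 at an unadjusted p under 0.05). Fitted on slides B alone, 4 mitochondrial pairs (2.82%) were called, all lower in rps9aDi, for tR(UCU)Q1, tC(GCA)Q, tA(UGC)Q and tW(UCA)Q (tryptophan). Of all pairs in that fit 0.783% passed. The tA(UGC)Q call rests on the 1 spot named above. With both dyes required no mitochondrial pair was called in rps9aDi, where tR(UCU)Q1 had no value in Cy3 and could not be tested.

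**Figure D2:**
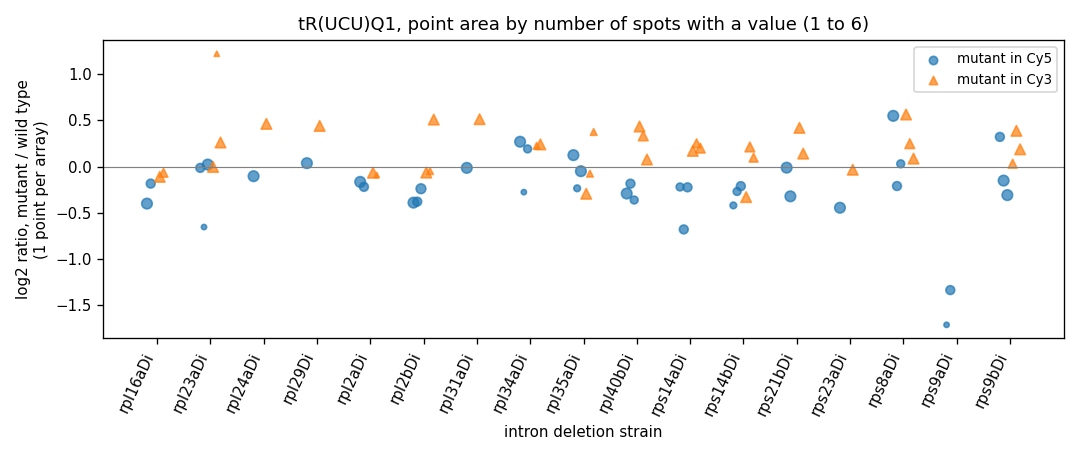
Log2 ratio (mutant to wild type) of tR(UCU)Q1 on each array by strain, circles for mutant RNA in Cy5 and triangles for mutant RNA in Cy3, with point size growing with the number of spots from 1 to 6. The 2 rps9aDi points lie at -1.71 and -1.34, both in Cy5, while the replicate means of the other strains, over their 2 arrays, stay between -0.38 and 0.56.

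The best-measured mitochondrial feature was tS(UGA)Q2, which lies apart from the run of 16 genes and was chosen after its values were seen. It was at -0.78 in the 1 rps23aDi replicate and at 0.61 in the 1 rpl31aDi replicate. In rpl16aDi it had -0.72 and -0.10, in rpl2bDi -0.55, -0.10 and -0.12, in rpl40bDi 0.70, 0.08 and -0.02, and in rps8aDi 0.68, 0.13 and 0.12. In each of these 4 strains 1 replicate was far from 0 and the rest near it. The far replicate was on slides B in rpl16aDi and on slides A in the other strains, and the near ones were all on slides C. The rps23aDi replicate was on slides B and the rpl31aDi replicate on slides A. In several other strains the replicates had 1 sign, among them rpl35aDi (-0.41, -0.26 and -0.21), rps14bDi (-0.39, -0.07 and -0.26) and rps21bDi (0.26 and 0.50). None of these 3 was called (limma adjusted p of 0.431, 0.493 and 0.846). The F test between strains gave an adjusted p of 0.0506 (limma), just outside the threshold, and rps23aDi alone an adjusted p of 0.229. The feature passed the F test with slide batch as a term (F = 3.78, adjusted p = 0.04), with both dyes required (0.0332) and on slides C alone (0.00959). It also passed with arrays centred or scaled, in Cy5 alone, and with the spot minimum, complete features or robust variance. It did not pass with spot medians, in Cy3 alone, with replicate number as a term, on slides B or without rps9aDi. Nor did it pass without the strains of 1 replicate, which include rps23aDi and rpl31aDi, or in most fits that left out 1 replicate. Of 21 mitochondrial features with a value in every strain, tR(UCU)Q1 was the 1 past the threshold over all slides (limma F = 10.8, adjusted p = 1.35e-05), and 7 had an unadjusted p under 0.05. Of all features 3.23% passed this test. Without rps9aDi the strains no longer differed in tR(UCU)Q1 by this test (F = 1.67, adjusted p = 0.525).

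Averaged over the 17 strains, no mitochondrial feature differed from 0 (limma, 0 of 21 called, 1 at an unadjusted p under 0.05), and the averages ran from -0.07 for tR(UCU)Q1 to 0.15 for tN(GUU)Q. Of all features 9.96% passed. With slide batch as a term tH(GUG)Q was called (0.19, adjusted p = 0.0245), and with arrays scaled to 1 spread tR(UCU)Q1 was (-0.10, adjusted p = 0.0143). The average of tR(UCU)Q1 includes rps9aDi at -1.52, from 5 spots of 1 dye orientation. Before scaling its other strain means lay on both sides of 0, from -0.24 in rps23aDi to 0.25 in rpl31aDi. The averages of the 3 nuclear genes found by symbol were -0.26 for SUP16, -0.05 for SUP11 and 0.03 for SUP61, and SUP16 was called. With all 39 nuclear features that had a value in every strain 5 were called, 4 below 0 and 1 above, and 9 had an unadjusted p under 0.05.

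SUP16, a gene for a serine tRNA known from nonsense-suppressor mutations, varied more than the other nuclear genes found by symbol. In rpl2bDi it had -0.64, -1.40 and -1.50, a mean of -1.18 ± 0.47 (SD, n = 3), or 0.442 of the wild type signal (limma, adjusted p = 0.0262). All 3 replicates and all 6 arrays, each with 6 spots, were below 0. With the mutant in Cy3 the arrays of the 3 replicates gave -0.93, -1.43 and -1.94, and with the mutant in Cy5 -0.34, -1.37 and -1.05. MFA2 lay at -3.94, -4.47 and -3.77 in the same replicates. The call was lost when any 1 of the 3 rpl2bDi replicates was left out, with adjusted p-values of 0.064, 0.254 and 0.211 and means of -1.45, -1.07 and -1.02. It was also lost when slide batch was a term in the fit (mean -1.08, adjusted p = 0.0549).

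In the other strains SUP16 went both ways. It was at -1.25 and -1.02 in rpl16aDi, -1.18 in rpl24aDi and -0.95 in rps23aDi. It was at 0.84 in rpl29Di and 0.76 in rpl31aDi, and in rpl40bDi at 0.17, 0.94 and 0.90. Both rpl16aDi replicates were thus below 0 and all 3 rpl40bDi replicates above it, but neither strain was called. Replicates parted within several strains. In rps21bDi SUP16 was at -1.49 and 0.30, in rpl35aDi at -0.42, 0.66 and 0.86, in rps14aDi at 0.44, -0.66 and -0.69, and in rps14bDi at 0.22, -0.89 and -0.46. In the last 3 strains the replicate that differed was on slides A or D and the other 2 on slides C. The F test between strains missed the threshold (adjusted p = 0.0716). The mean over strains was -0.26 ± 0.08 (SE, 17 strains), with 12 of 17 strains below 0 and an adjusted p of 0.0496. This call was lost in 30 of 39 fits that left out 1 replicate, and with slide batch as a term the mean was -0.01 (adjusted p = 0.95). The fit with slide batch weights the batches equally, so slides D, with 2 replicates, count as much as slides C, with 18. On slides B alone the mean over strains was -0.80, and on slides C alone it was -0.30. Averages by slide batch were 0.02 on A, -0.70 on B, -0.29 on C and 0.33 on D.

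More features of every kind were called on slides C alone, which held 18 replicates. There 10 of 232 mitochondrial pairs (4 higher, 6 lower) and 10 of 30 pairs of the nuclear genes found by symbol passed, beside 13.4% of all pairs, and SUP16 was called in 7 of 10 strains. With all 40 nuclear genes 59 of 400 pairs passed (21 higher, 38 lower), a share of 14.8% that is close to that of all pairs. SUP16 was lower in rpl2bDi (-1.45, adjusted p = 4.58e-05), rpl16aDi (-1.02, 0.00751), rps14aDi (-0.68, 0.0087), rps14bDi (-0.67, 0.00735) and rpl23aDi (-0.56, 0.0246), and higher in rpl40bDi (0.92, 0.000285) and rpl35aDi (0.76, 0.00258). The call in rpl16aDi rests on the 1 replicate of that strain on slides C, assumed to vary like the others. The F test on these slides gave 35.1 for SUP16 (adjusted p = 4.22e-05), where 3 of 19 mitochondrial features (tS(UGA)Q2, tS(GCU)Q1 and tT(UAG)Q2), 24 of 40 nuclear features and 34.9% of all features passed. In rpl35aDi and in both rps14 strains the replicate left out of that fit had the opposite sign, so these 3 calls hold for slides C only.

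SUP11, a tyrosine tRNA gene with an intron, ran from -0.75 to 0.74 over the replicates. In rpl2bDi it had -0.40, -0.54 and -0.58, all below 0 and not called over all slides, while on slides C it was called there (-0.56, adjusted p = 0.00164) and in rpl34aDi (0.32, adjusted p = 0.0212). Its highest value, 0.74, was replicate 1 of rps14aDi on slides D, and the other 2 replicates of that strain gave -0.06 and 0.03. SUP61, the essential single-copy gene of the serine tRNA that reads UCG, also with an intron, stayed between -0.38 and 0.49. It was not called in any strain over all slides, and on slides C alone it was called in rpl35aDi (-0.17, adjusted p = 0.0288), where the 3 replicates had -0.38, -0.17 and -0.17. In rpl2bDi, where SUP16 was low, SUP61 had 0.31, -0.07 and -0.13, on both sides of 0. F tests between strains gave adjusted p-values of 0.564 for SUP11 and 0.557 for SUP61.

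**Figure D3:**
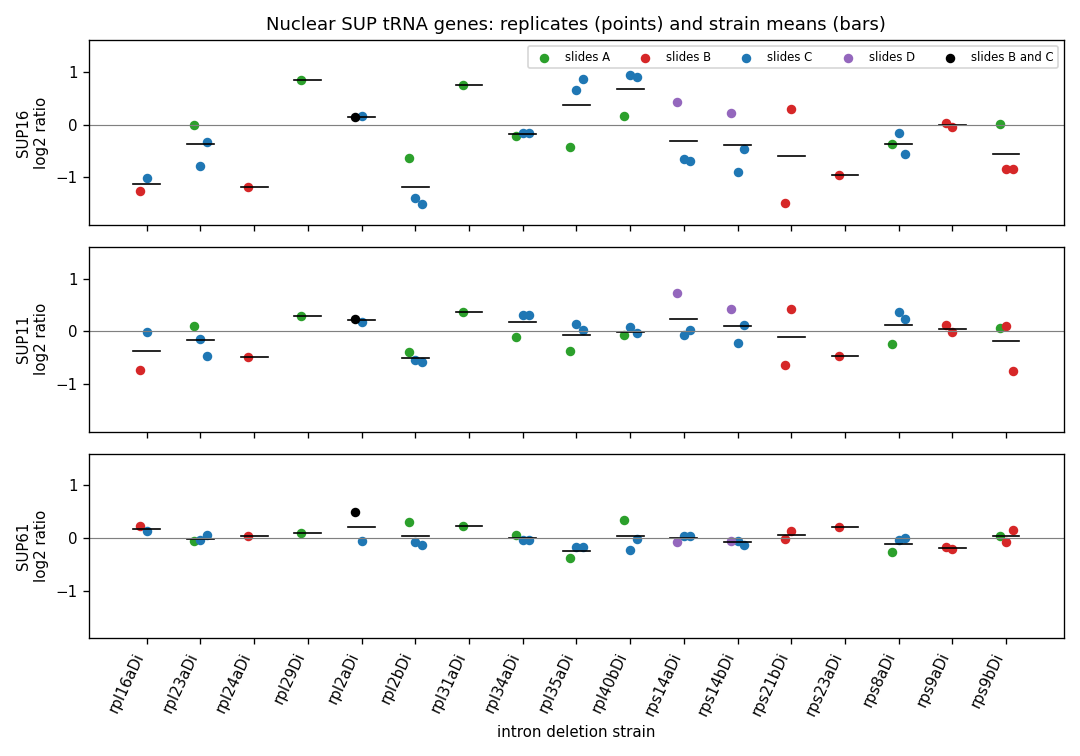
Replicate log2 ratios (mutant to wild type) of SUP16, SUP11 and SUP61 in the 17 strains, with points coloured by slide batch. SUP16 is below 0 in all 3 rpl2bDi replicates (-0.64, -1.40 and -1.50), whereas SUP61 stays between -0.38 and 0.49 in every strain.

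Of the nuclear genes known only by RefSeq gene type, most calls also came from rpl2bDi. In that strain 6 of 40 nuclear tRNA features were called, all lower, and 17 had an unadjusted p under 0.05, while 0 of 24 mitochondrial features were called or reached an unadjusted p under 0.05 (limma). Of all features in rpl2bDi 1.78% passed. Beside SUP16 the 6 were YNCD0021C, YNCD0013C, TGA1 (an alanine tRNA gene), YNCA0006C and YNCD0003W. YNCD0021C had -1.61, -1.09 and -0.92 and a mean of -1.21 ± 0.36 (SD, n = 3, limma adjusted p = 0.0255). YNCD0013C had -1.12, -1.04 and -1.0, the narrowest spread of the 6 (mean -1.05 ± 0.06, SD, n = 3, limma adjusted p = 0.026). For both, all 3 replicates stood clear of 0.

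TGA1 had -0.23, -1.0 and -0.96 in rpl2bDi, with replicate 1 nearer to 0 than the rest (limma adjusted p = 0.0366). YNCA0006C had -0.51, -0.65 and -0.54 (adjusted p = 0.0405), and YNCD0003W had -0.15, -0.42 and -0.56 (adjusted p = 0.0443). None of the 6 calls held when any 1 of the rpl2bDi replicates was left out, with adjusted p-values of 0.064 to 0.369, although every mean stayed below 0. With slide batch as a term YNCD0021C (adjusted p = 0.00424) and YNCD0013C (0.0374) passed, while TGA1 (0.0819), YNCA0006C (0.0819) and YNCD0003W (0.114) did not. YNCB0018W, which was not called in rpl2bDi, had -1.47, -1.01 and -0.95 there.

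The other 3 nuclear calls were higher in the mutant. YNCB0013W had 0.14, 1.15 and 0.91 in rpl34aDi (mean 0.74 ± 0.53, SD, n = 3, limma adjusted p = 0.00148) and differed between strains (limma F = 3.85, adjusted p = 0.0406). The F test passed in only 18 of 39 fits that left out 1 replicate, and not with arrays scaled (adjusted p = 0.0558), in Cy5 alone (0.358) or without rps9aDi (0.06). Slides B (adjusted p = 0.46) held no replicate of rpl34aDi, so that fit could not show its difference. On slides C, which held rpl34aDi, the F test passed (F = 23.3, adjusted p = 0.000189), as did 34.9% of all features. The call in rpl34aDi was lost without replicate 2 of rpl34aDi (0.53, adjusted p = 0.12). YNCC0008W had 0.48, 0.39 and 0.46 in rps9bDi (adjusted p = 0.00784), 3 replicates close to each other only as means of their 2 arrays. In replicate 1 the array with the mutant in Cy3 gave 1.37 and that in Cy5 -0.42, while both arrays of replicates 2 and 3 were above 0. The call was lost without any 1 of the 3 replicates (adjusted p of 0.0589 to 0.121), and with the mutant in Cy5 alone the mean was 0.10. YNCD0022C had -0.30, 0.66 and 0.70 in rpl40bDi (adjusted p = 0.0449), so that 1 replicate had the opposite sign, and without replicate 2 or replicate 3 the adjusted p was 0.583 or 0.533. It was 0.0849 with slide batch as a term.

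Over the 17 strains YNCB0018W averaged -0.39 (adjusted p = 0.0104, 12 strains below 0), YNCD0013C -0.38 (0.00142, 13 below) and YNCD0021C -0.37 (0.00424, 13 below), while YNCC0008W averaged 0.15 (0.000482, 13 above). With slide batch as a term the first 3 were no longer called, at -0.05 (adjusted p = 0.728), -0.20 (0.183) and -0.12 (0.381). That fit weights the batches equally, slides D with 2 replicates included. On slides B alone the means of these 3 over strains were -1.03, -0.74 and -1.0, and on slides C alone -0.22, -0.34 and -0.24. YNCC0008W kept its call with slide batch as a term (0.16, adjusted p = 0.00168), but with the mutant in Cy5 alone its mean was 0.03 (adjusted p = 0.677). On slides D YNCB0018W reached 1.40 in rps14aDi and 1.09 in rps14bDi. Its averages were -0.63 on slides A, -0.90 on B, -0.23 on C and 1.24 on D, and those of YNCD0021C were -0.47, -0.86, -0.26 and 0.78 on the same slides. YNCB0018W gave 11 of the 31 nuclear values beyond 1 in either direction, YNCD0021C 7, SUP16 6 and YNCD0013C 5, with 1 each from CDC65 and YNCB0013W, and the other 34 nuclear features gave 0.

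**Figure D4:**
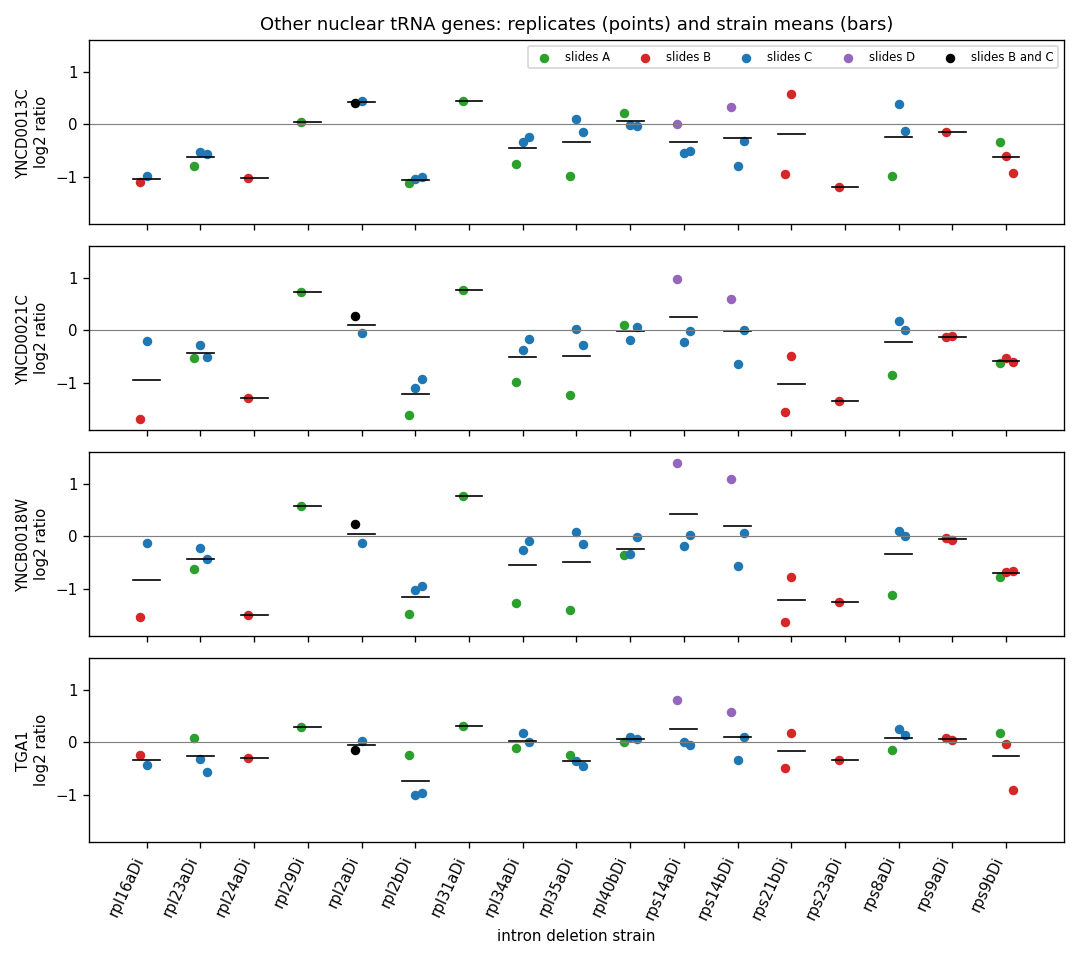
Replicate log2 ratios (mutant to wild type) of nuclear tRNA features known by RefSeq gene type in the 17 strains, with points coloured by slide batch. YNCD0013C and YNCD0021C are below 0 in all 3 rpl2bDi replicates, and YNCB0018W is above 1 in the 2 replicates on slides D.

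Genes that make, cut and splice tRNA were also read on the arrays, in lists chosen with earlier results of these data known. Of 22 genes for tRNA splicing, ends and export, 12 had 18 features, and 6 of their 305 pairs were called, all higher in the mutant, beside 0.984% of all pairs. Of these 6 calls 5 belonged to the Lsm ring, which binds the ends of RNA polymerase III transcripts and U6 RNA. LSM4, LSM5 and LSM6 were higher in rpl40bDi (0.54, 0.82 and 0.66), LSM3 in rpl34aDi (0.32), and LSM7 in rps9aDi (1.48, 1 replicate, 1 of its 3 features). TAN1, needed to acetylate tRNA, was higher in rps14bDi at 1 of its 3 features (0.54). Thus 3 of the 6 calls were in rpl40bDi, where 119 of all 1457 features were called. The ligase gene TRL1 averaged -0.12 over the strains (limma adjusted p = 0.00628). The median of this list was 0.01, beside -0.00 for all features.

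Of 12 genes of RNase P 9 were on the arrays, with 1 higher and 3 lower calls in 187 pairs, again beside 0.984% of all pairs, and a median of 0.01. In rpl40bDi POP5 was at 0.27 and POP6 at -0.48, and in rps9aDi POP4 was at -0.44 and POP8 at -1.75, the last from 1 replicate and at 1 of its 3 features. These 4 encode protein subunits of the nuclear enzyme. Of 24 genes of RNA polymerase III and its factors 9 were present, with SPT15, the TATA-binding protein, higher in rpl40bDi (0.50) and RPC82, a subunit of the enzyme, lower in rpl34aDi (-0.30), 2 calls among 218 pairs, a share near that of all pairs. The tRNA modification list had 5 of 39 genes and 0 calls in 118 pairs (limma, 7 at an unadjusted p under 0.05). Of 23 genes of mitochondrial gene expression 4 were present, and MSS18, which acts in splicing of a COX1 intron, was higher in rps9bDi (0.47) and averaged 0.17 over the strains (limma adjusted p = 0.00141). Aminoacyl-tRNA synthetases and other RNAs made by RNA polymerase III were listed as well, and 0 of their 34 and 5 genes were on the arrays.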

How the data were processed

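The deposited values are log2 ratios per spot, positive for more signal in the mutant, which the authors normalized with the marray and limma packages in R in a pipeline based on Goulphar. No genome build is named in the sources read here, and RefSeq (R64) was used only for names, gene types and gene order. All 982 symbols matched.

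The 6 spots of a feature were averaged on each array, then the 2 dye-swapped arrays of a replicate. A mean per strain was fitted over 39 replicates with limma 3.58.1 (R 4.3.3), with strains of 1 replicate assumed to vary like the others. Adjustment was Benjamini-Hochberg over all 1457 named features within a strain, with a threshold of 0.05. The F test between strains and the mean over strains used the 1395 features with a value in every strain. Features without value were left out, not imputed. The fit was tested on simulated data.

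The text names each tRNA feature called in the 3 tests over all slides and the 3 of each class with the largest range of strain means, from at least 30 replicates, beside SUP11 and SUP61. The members and lists were chosen with earlier results of these data known. Alternatives were another spot average, scaling or centring, 1 dye, both dyes required, slide batch, replicate number, spot minimum, complete features, robust variance and left-out replicates. With slide batch as a term the batches were weighted equally, whatever their number of replicates. The number of arrays limits the precision.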

Additional observations from a re-analysis of the deposited data

Results flagged for a closer look

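tR(UCU)Q1 and YNCB0013W were singled out because the strains differed from each other in the F test of limma over the 17 strain means. For tR(UCU)Q1 the adjusted p was 1.35e-05, and rps9aDi, at -1.52 from 5 spots of 1 dye orientation, was the strain apart. For YNCB0013W the adjusted p was 0.0406, and rpl34aDi, at 0.74, was highest, and rps23aDi and rpl16aDi were among the low strains. The F test of YNCB0013W passed in only 18 of 39 fits that left out 1 replicate, and not with arrays scaled (adjusted p = 0.0558), in Cy5 alone (0.358) or without rps9aDi (0.06). No group had the 4 replicates that a test for outlying samples needs.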

How the results depend on the processing

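The counts for genes found by symbol moved with the processing. Pairs of feature and strain called, 2 as reported, were 6 with arrays scaled, 8 with the mutant in Cy3 only, 6 in Cy5 only, 4 on slides B, 20 on slides C, 3 with slide batch, 1 without rps9aDi (added after seeing the data), 1 with each strain's own spread, and 1 to 4 without 1 replicate. Features that differed between strains, 1 as reported, were 0 (Cy3 only, without rps9aDi), 2 (spot medians, centred arrays, Cy5 only, robust variance), 3 (at least 4 spots, complete features, slides B), 4 (scaled arrays, slide batch), 5 on slides C, and 1 to 4 without 1 replicate. Features whose mean over strains differed from 0, 1 as reported, were 6 in Cy3 only, 12 in Cy5 only, 2 without strains of 1 replicate, 4 on slides B, 3 on slides C, 0 with both dyes required, the replicate block, at least 4 spots, robust variance or without rps9aDi, 1 with slide batch or arrays scaled (a mitochondrial gene in place of SUP16), and 0 to 1 without 1 replicate. The features called by this mean in both Cy3 only and Cy5 only had opposite signs in the 2 fits. They were tQ(UUG)Q (0.16 and -0.12), tT(UGU)Q1 (-0.22 and 0.15), tD(GUC)Q (-0.33 and 0.25) and tW(UCA)Q (0.14 and -0.16). The class difference, 0.05, was -0.50 on slides D and 0.05 to 0.06 without 1 replicate. With all nuclear genes, counts ran over 6 to 69, 0 to 27 and 2 to 22. The mean over strains of YNCC0008W turned to -0.021 on slides C (adjusted p = 0.241). The causes were not tested.

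The call of SUP16 in rpl2bDi was lost with arrays scaled (adjusted p = 0.0642), Cy5 only (0.0621) and its own spread (0.106). Replicate numbers did not pair the samples: deviations of same-numbered replicates had a mean correlation of 0.09, and 7 of 36 strain pairs had all 3 correlations over 0.1. The replicate block left 2 pairs called, 1 feature that differed between strains and a class difference of 0.04, and moved the mean of SUP16 to -0.28 (adjusted p = 0.0625). Low spot numbers limit mitochondrial features most, since 53 of their replicate values were missing.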
